A study of Mus musculus with 4 samples.

Results

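Genes that make cholesterol and fatty acids were followed in mouse neural progenitor cells after knockdown of Rybp. The 37 genes were taken by symbol from a list of these pathways, out of 13881 genes in the deposited table. They are 18 enzymes of sterol synthesis, 7 genes of SREBP control and sterol transport, and 12 enzymes of fatty acid synthesis. All 37 were in the table and all 37 passed the level filter of the test, a mean of at least 1 FPKM (read counts scaled to gene length and to library size), as did 12062 genes of the series. Membership went by symbol alone, but the list was drawn up with earlier results of these data known, so its shares against all genes are descriptions.

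The study grew progenitors from the embryonic day 14 forebrain of C57bl/6 mice in a proliferation medium. The medium held the supplement B27 (2%) and the mitogens EGF and FGF-2 (both 20 ng/ml). Both groups were proliferating cells of the same strain and medium. Cells of the shRybp group (2 libraries) were infected with a lentivirus carrying a short hairpin RNA against Rybp, a Polycomb repressive complex 1 subunit, and the 2 control libraries are labelled ctrl, with no vector named. Whether the libraries of a group are separate cultures, mice or infections is not stated, so a p-value here reflects the spread between these libraries alone, and that spread may be technical.

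Cells build cholesterol from acetyl-CoA through mevalonate, isoprenoid units, squalene and lanosterol, and fatty acids from acetyl-CoA through malonyl-CoA. The transcription factors SREBP-1 and SREBP-2 drive the genes of both pathways. Their precursors are held in the endoplasmic reticulum membrane by Scap and the Insig proteins while sterol is plentiful, and move to the Golgi for cleavage when it is scarce. The brain makes nearly all of its own cholesterol, since plasma lipoproteins do not cross the blood-brain barrier, and glia supply part of it to neurons.

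Total counts ran from 14355308 to 17598873 per library. Rybp itself had 4.43 and 3.95 FPKM in the control libraries and 3.01 and 2.66 in the shRybp libraries, or -0.61 on the log2 scale in edgeR (SE 0.12, interval at 95% from -0.86 to -0.36, adjusted p = 0.0016). Its transcript was thus reduced, not absent. Progenitor markers ranged widely in level. Nes at 145 to 244 FPKM and Fabp7 at 1351 to 2210 were high in every library. Hes1 was at 9.62 to 11.5 FPKM, Msi1 at 5.08 to 8.21 and Pax6 at 3.37 to 3.59. Prom1, at 0.64 to 0.79 FPKM, did not reach the filter. Libraries did not all sort by group: genes of mature oligodendrocytes were higher in control 2 and shRybp 1 than in the other pair, with Mag at 1.78 and 2.07 FPKM there, against 0.0696 in control 1 and a listed value of 0 in shRybp 2. For the 37 genes and their groups, calls that change without 1 library are therefore given with the value without it. No such values are given for the other lists.

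Regulatory sequence of 3 of the genes is shown first, since SREBPs act at such promoters together with the factor NF-Y, which binds CCAAT. The stretches are the 250 bases before the transcription start in RefSeq, 5′ to 3′ on the gene's strand, on GRCm38.p6, the assembly also called mm10. They hold no annotated exon. Hmgcs1 was chosen because its window alone among those of the 30 lipid genes with one holds the sterol regulatory element core, Ebp because it had the highest log2 fold change of the 37, and Fasn as the enzyme that gives the fatty acid pathway its name. Capitals mark CCAAT or its reverse complement ATTGG, and in Hmgcs1 also the core TCACNCCAC. The CCAATTGG of Fasn is a pair of overlapping matches, 1 on each strand.
Hmgcs1 (chr13:119690101-119690350, plus strand): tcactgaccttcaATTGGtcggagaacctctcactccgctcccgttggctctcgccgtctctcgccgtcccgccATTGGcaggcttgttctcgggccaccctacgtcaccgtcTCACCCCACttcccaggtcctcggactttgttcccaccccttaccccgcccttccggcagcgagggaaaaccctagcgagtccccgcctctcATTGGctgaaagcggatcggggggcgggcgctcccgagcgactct
Ebp (chrX:8193513-8193762, minus strand): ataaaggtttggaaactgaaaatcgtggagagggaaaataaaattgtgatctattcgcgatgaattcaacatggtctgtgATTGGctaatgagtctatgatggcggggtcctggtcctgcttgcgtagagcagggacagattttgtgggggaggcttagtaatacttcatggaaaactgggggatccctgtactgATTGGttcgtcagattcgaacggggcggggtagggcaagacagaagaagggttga
Fasn (chr11:120824548-120824797, minus strand): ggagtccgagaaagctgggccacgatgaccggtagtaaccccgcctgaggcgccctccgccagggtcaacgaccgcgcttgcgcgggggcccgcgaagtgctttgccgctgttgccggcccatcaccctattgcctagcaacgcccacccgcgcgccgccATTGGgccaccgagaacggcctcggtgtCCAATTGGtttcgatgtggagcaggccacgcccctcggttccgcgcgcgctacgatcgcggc

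Promoter windows of 300 bases, 250 before to 50 after a start, were in the RefSeq table for 30 of the 37 genes. A gene with several starts was counted once. CCAAT, searched on both strands, was in a window of 24 of the 30 (80.0%), against 43.9% of the 8851 tested genes with a window and 37.41% of all 32851 windows. Among sterol enzymes it was found in 14 of 15, the exception being Acat2. It was found in 4 of 6 genes of SREBP control and sterol transport, and in 6 of 9 fatty acid enzymes. TCACNCCAC was in the window of Hmgcs1 and of no other gene of the 30, against 1.4% of tested genes. The E-box CACGTG was in 6 of 30 (20.0%), against 12.1% of tested genes, and the Sp1 box GGGCGG in 25 of 30 (83.3%), against 71.8%. By response, CCAAT was in 7 of 9 genes that rose, 2 of 4 that fell and 15 of 17 that did not pass the test. Matches to letters are a description of these windows and not sites shown to be bound.

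**Figure D1:**
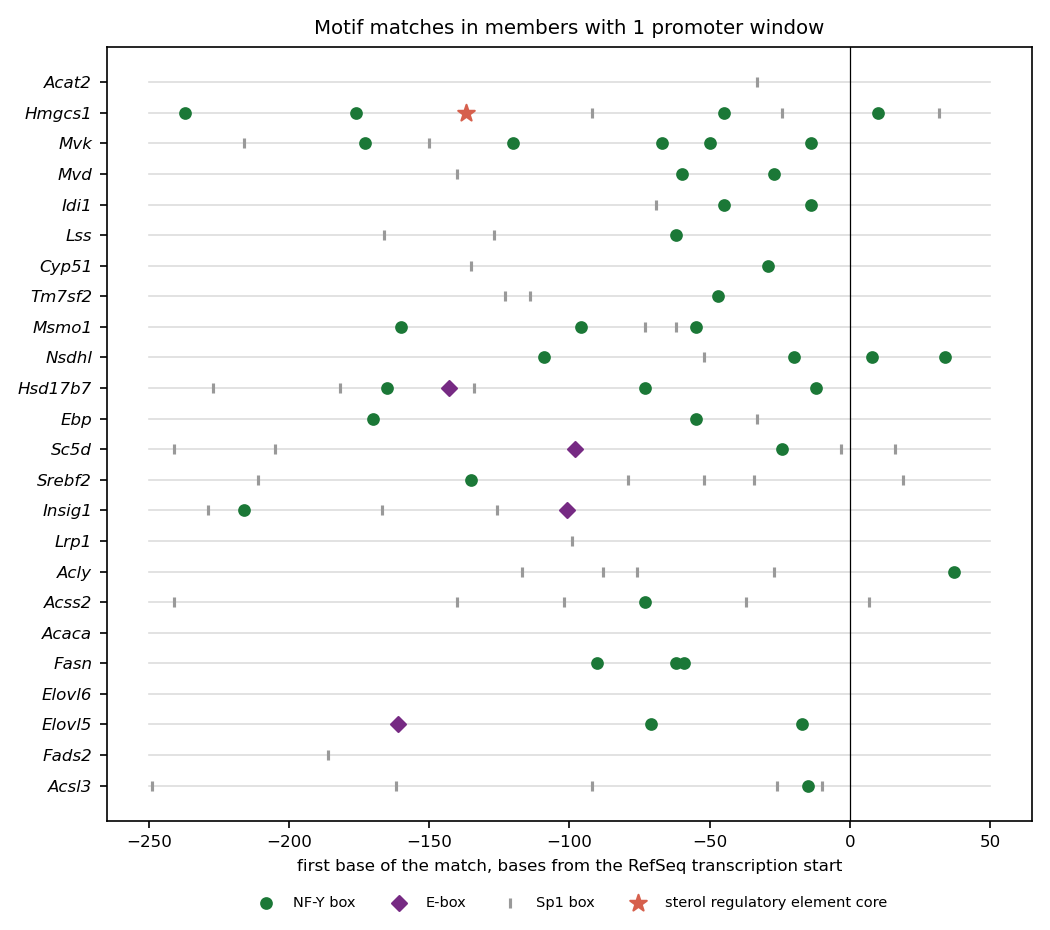
Position of each CCAAT box, E-box, Sp1 box and sterol regulatory element core in the promoter windows of the 24 genes with 1 window, by gene (rows) and by distance of the match's first base from the RefSeq transcription start in bases (horizontal axis). A single sterol regulatory element core is drawn, that of Hmgcs1, 137 bases before the start.

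Levels spanned a wide range. Scd2, a stearoyl-CoA desaturase, averaged 931 FPKM over the 4 libraries, above 99.9% of the tested genes, and Hmgcs1 averaged 434 FPKM. Fdps, which makes farnesyl pyrophosphate, was lowest at 2.29 FPKM, and Acsl6, an acyl-CoA synthetase, was next at 4.21. In Fdps 91.4% of the transcript has a match of at least 95% identity in other genes, so its low count may not be its own level. Between libraries of 1 group the log2 values had a median SD of 0.079 in sterol enzymes, 0.110 in SREBP control and sterol transport genes and 0.037 in fatty acid enzymes.

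**Figure D2:**
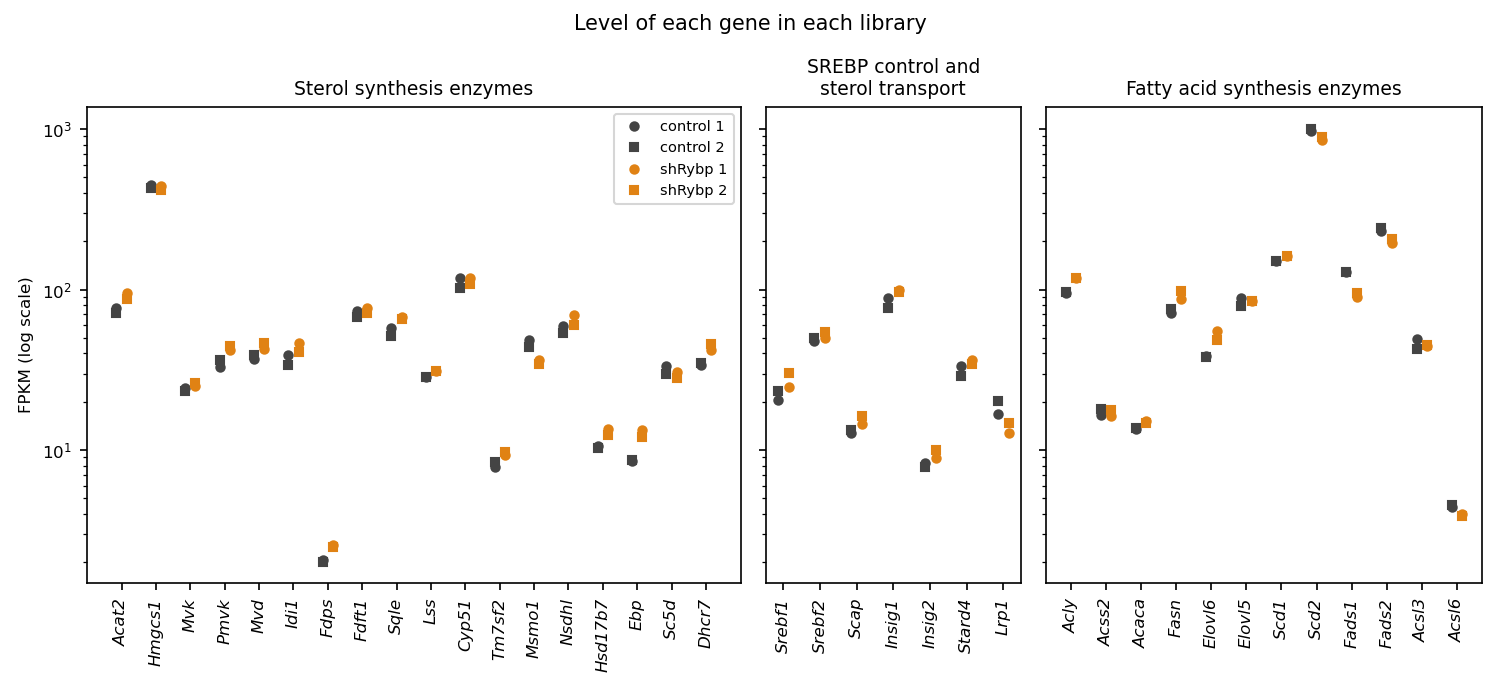
Level of each of the 37 genes in each of the 4 libraries, in FPKM on a log axis, with genes along the horizontal axis in their 3 groups and a symbol for each library. Scd2 at 859 to 1005 FPKM and Hmgcs1 at 415 to 451 stand highest, and Fdps at 2.02 to 2.56 lowest.

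Of the 37 genes, 10 rose in shRybp cells, 6 fell and 21 did not pass the test (edgeR, Benjamini-Hochberg adjusted p under 0.05 over all genes). Across all tested genes 16.1% rose and 17% fell. Both shRybp libraries were above both controls in 24 of the 37 genes, against 38.5% of tested genes, and below both in 6, against 29%. The median log2 fold change was 0.14, against 0.00 over all tested genes, and single values lay between -0.52 and 0.51, so each was less than a 1.5-fold change. Fewer cells of a type and less RNA per cell cannot be told apart in these bulk libraries. Astrocyte markers were lower in shRybp cells beside these changes, with 10 of 11 tested markers fallen, a median log2 fold change of -0.77 and a sum of 1109 to 1143 FPKM in controls against 693 to 731. S-phase genes were higher, with 12 of 12 risen, a median of 0.53 and a sum of 550 to 576 against 824 to 837 FPKM. Their part in the results on lipid genes was not tested.

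**Figure D3:**
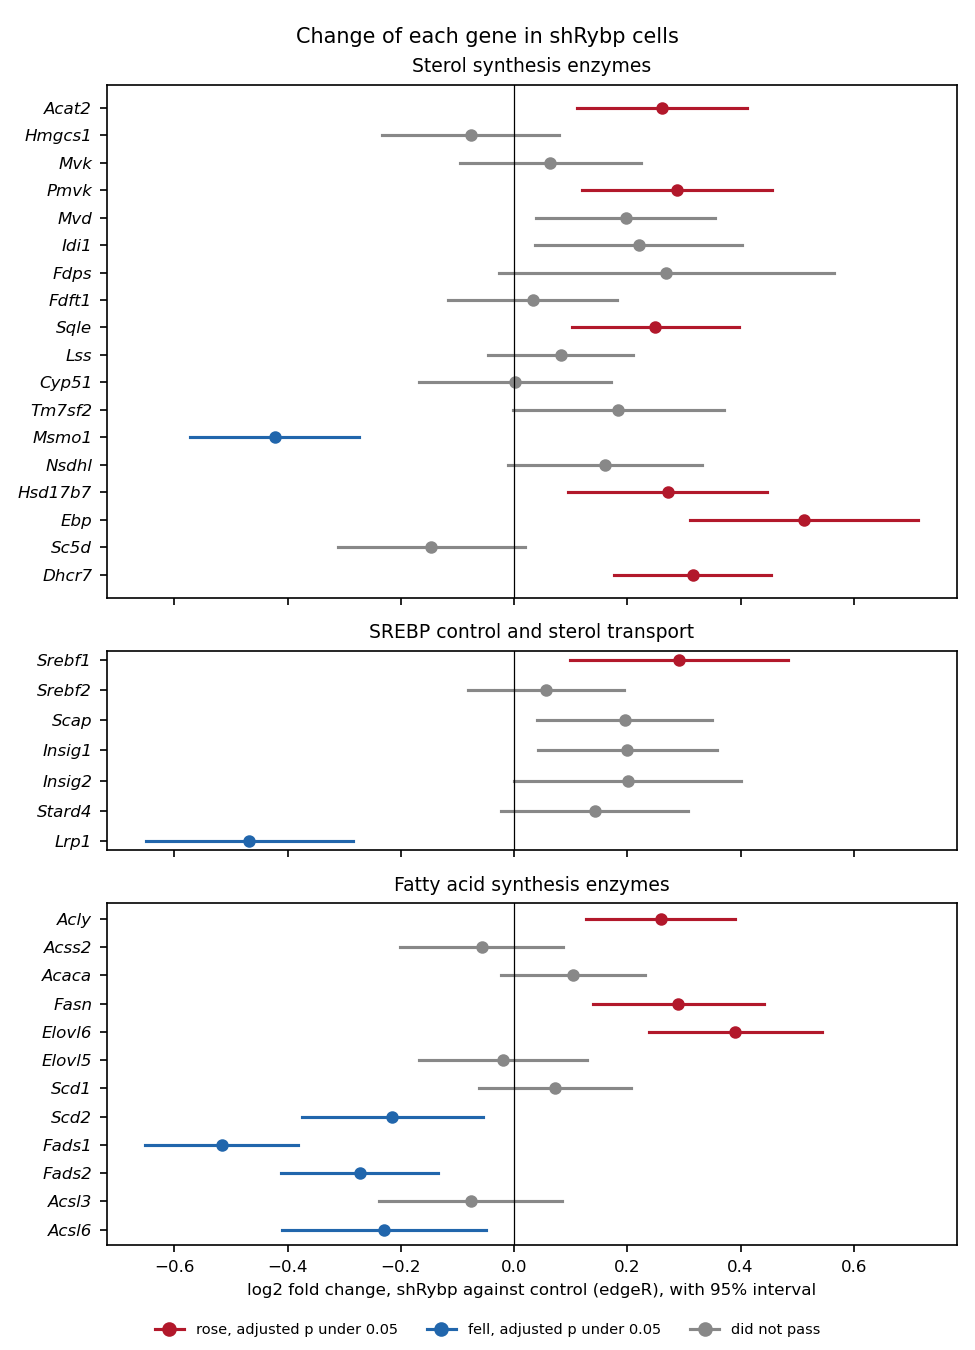
Log2 fold change of each of the 37 genes, shRybp against control, from edgeR on 2 libraries per group (points) with its 95% interval (bars), in pathway order within the 3 groups. Red points rose, blue points fell and grey points did not pass at an adjusted p of 0.05; Ebp at 0.51 and Fads1 at -0.52 are the extremes.

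Sterol enzymes moved upward more often than downward in the fit with all 4 libraries. Of 18, 6 rose (33.3%, against 16.1% of all tested genes) and 1 fell (5.56%, against 17%), with a median log2 fold change of 0.19. In 13 of them both shRybp libraries were above both controls, against 38.5% of all tested genes. In 1 both were below, against 29%, and in 4 the groups overlapped. The 8 enzymes before squalene had 2 rises and no fall, and the 10 from squalene on had 4 rises and 1 fall, with medians of 0.21 and 0.17. This was weaker without control 2, where fewer enzymes rose and more fell. The median log2 fold change was then 0.14, against 0.00 over all tested genes.

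The path opens with Acat2, the cytosolic thiolase that joins acetyl-CoA units. It had 76.9 and 71.8 FPKM in control 1 and 2 and 95.9 and 87.1 in shRybp 1 and 2, and rose by 0.26 on the log2 scale (SE 0.07, edgeR adjusted p = 0.012). The 2 shRybp libraries stood above both controls, but the call was lost without control 2 (adjusted p = 0.0735) and without shRybp 1 (0.0921). A near copy, Acat3, matches 65.6% of the Acat2 transcript but drew 186 counts in all against 13511 for Acat2. Another gene of the same chromosome, Tcp1, matches 19.8% of the transcript and drew 30117 counts (log2 fold change 0.16, adjusted p = 0.070). No source used here says how reads were shared, so the Acat2 level is uncertain.

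Hmgcs1, the HMG-CoA synthase, was by far the most abundant sterol enzyme transcript and did not pass. It had 451 and 428 FPKM in the controls and 442 and 415 in shRybp cells, with overlapping groups and a log2 fold change of -0.08 (95% interval -0.23 to 0.08, edgeR adjusted p = 0.45). The mevalonate kinase Mvk, at 24.4 and 23.4 against 25.2 and 26.1 FPKM, had a log2 fold change of 0.06 (adjusted p = 0.54).

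Pmvk, the next kinase, did pass. Its levels were 33.0 and 36.3 FPKM in control 1 and 2, and 42.1 and 44.8 in shRybp 1 and 2, a rise of 0.29 (SE 0.08, edgeR adjusted p = 0.012). The call was lost without control 1 (adjusted p = 0.0862) or shRybp 2 (0.1). Mvd, the decarboxylase that follows it, went from 36.7 and 39.0 to 42.9 and 46.2 FPKM without overlap, and came just short of the threshold with a log2 fold change of 0.20 (95% interval 0.04 to 0.35, adjusted p = 0.054). In Idi1, the isopentenyl isomerase, 33.3% of the transcript has a match in other genes. Of these, the pseudogene Gm13502 drew 120 counts in all against 8996 for Idi1. Idi1 had 39.0 and 33.8 against 46.4 and 40.8 FPKM, a log2 fold change of 0.22 (adjusted p = 0.062). It passed without control 1 (adjusted p = 0.00522) and without shRybp 2 (0.0159).

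Fdps was at 2.06 and 2.02 FPKM in controls and 2.56 and 2.50 in shRybp cells, with a log2 fold change of 0.27 and the widest interval of the 37 genes, -0.03 to 0.56 (edgeR adjusted p = 0.15). The processed pseudogene Gm3571, whose match covers 76.8% of the Fdps transcript, held more counts than Fdps itself, 2356 against 617. It had 29.8 and 28.1 FPKM in controls and 42.2 and 39.0 in shRybp cells and rose by 0.45 (adjusted p = 0.0021). No source used here says how reads were shared between gene and copy, so neither value is certain. Fdft1, squalene synthase, overlapped between groups at 73.9 and 67.5 against 76.8 and 71.7 FPKM (log2 fold change 0.03, adjusted p = 0.75). Its exons overlap those of Ctsb on the opposite strand over 18.3% of their length, and Ctsb fell by 0.41. The pseudogene Gm6781 matches 33.7% of the Fdft1 transcript but drew 64 counts in all against 19196 for Fdft1.

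Sqle, the squalene epoxidase and a rate-limiting step, had 57.3 and 51.7 FPKM in controls and 67.3 and 65.9 in shRybp cells. It rose by 0.25 (SE 0.07, edgeR adjusted p = 0.014), a call lost without control 2 (adjusted p = 0.136). The cyclase Lss and the lanosterol demethylase Cyp51 that follow had log2 fold changes of 0.08 (adjusted p = 0.31) and 0.00 (0.99). In Cyp51 the groups overlapped, at 117 and 102 against 118 and 108 FPKM. Tm7sf2, a sterol reductase, had 7.86 and 8.49 against 9.35 and 9.72 FPKM, a log2 fold change of 0.18 (adjusted p = 0.12), and shares 12.1% of its exon bases with Vps51.

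Msmo1, the methylsterol monooxygenase that starts removal of the C4 methyl groups, was the exception among sterol enzymes. Its levels were 48.2 and 43.8 FPKM in control 1 and 2 and 36.3 and 34.2 in shRybp 1 and 2, and it fell by 0.42 on the log2 scale (SE 0.07, 95% interval -0.57 to -0.27, edgeR adjusted p = 0.0005). Both shRybp libraries were below both controls, and the call held under all 11 alternative settings. The enzymes that act with it on the same methyl groups were not among those that fell. Nsdhl, the dehydrogenase, had 59.3 and 53.9 against 69.7 and 60.4 FPKM, a log2 fold change of 0.16 (adjusted p = 0.14) that passed without control 1 (0.0442) and without shRybp 2 (0.026). Hsd17b7, the ketoreductase, went from 10.6 and 10.3 to 13.6 and 12.3 FPKM and rose by 0.27 (SE 0.08, adjusted p = 0.021). That call was lost without control 2 (adjusted p = 0.0719), without shRybp 1 (0.154) and with DESeq2 (0.0505).

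Ebp, the sterol isomerase whose promoter is shown above, changed most of the sterol enzymes. It is on chromosome X (8185329 to 8193512, minus strand, mm10) and had 8.57 FPKM in control 1 and 8.70 in control 2 against 13.3 in shRybp 1 and 12 in shRybp 2. The groups did not overlap, and Ebp rose by 0.51 on the log2 scale (SE 0.09, 95% interval 0.31 to 0.71, edgeR adjusted p = 0.0011). Sc5d, the desaturase that acts on the product, overlapped at 33.5 and 29.6 against 30.6 and 28 FPKM. Its log2 fold change was -0.15 (adjusted p = 0.16), which passed without control 2 (0.0344).

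Dhcr7, which reduces 7-dehydrocholesterol to cholesterol, had 33.8 and 35.0 FPKM in controls and 41.9 and 46.0 in shRybp cells. It rose by 0.32 (SE 0.06, 95% interval 0.18 to 0.45, edgeR adjusted p = 0.0022). The Ebp and Dhcr7 calls held under all 11 alternatives.

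Summed over the 18 sterol enzymes the level was 1142 and 1075 FPKM in controls and 1205 and 1141 in shRybp cells, so the groups overlapped. Hmgcs1 made up 36.3% to 39.8% of that sum. With it left out, a choice made after the values were seen, the other 17 summed to 691 and 646 FPKM in controls against 763 and 727, without overlap.

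Genes that control SREBP and carry sterol gave 1 rise and 1 fall among 7, with a median of 0.20. Each is 14.3%, against 16.1% risen and 17% fallen among all tested genes. The number that rose was 2 without control 1 or shRybp 1, and 0 without shRybp 2. In 6 of the 7 genes both shRybp libraries were above both controls, against 38.5% of all tested genes. In 1, Lrp1, both were below, against 29%. Srebf1, which encodes SREBP-1 and in its 1c form drives fatty acid genes, had 20.4 and 23.2 FPKM in controls and 24.6 and 30.1 in shRybp cells. It rose by 0.29 (SE 0.09, edgeR adjusted p = 0.024), with the highest value in shRybp 2. Its call was lost without shRybp 2 (adjusted p = 0.274) and without control 1 (0.102), and with limma (0.0733). Srebf2, which encodes SREBP-2, the main driver of sterol genes, stood at 47.8 and 50.2 against 50.2 and 54.4 FPKM, with a log2 fold change of 0.06 (95% interval -0.08 to 0.19, adjusted p = 0.53).

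Scap, the escort of the SREBPs, and Insig1, which retains it, both had a log2 fold change of 0.20 just short of the threshold. Scap had 12.7 and 13.4 FPKM in controls and 14.5 and 16.2 in shRybp cells (edgeR adjusted p = 0.052, and 0.0263 without shRybp 1). Insig1, itself an SREBP target, had 88.5 and 77.3 against 99.3 and 96.6 FPKM (adjusted p = 0.051, and 0.0049 without control 1). The second retention gene, Insig2, had 8.31 and 7.84 against 8.99 and 10.1 FPKM, also 0.20 (adjusted p = 0.11). Insig1 was 9.86 to 10.7 times as high as Insig2 in controls and 9.59 to 11 times in shRybp cells, so this balance overlapped between groups. Stard4, a cytosolic sterol carrier, had 33.4 and 28.9 against 36.4 and 34.2 FPKM, a log2 fold change of 0.14 (adjusted p = 0.17), and passed without control 1 (0.0227).

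Lrp1, a large endocytic receptor for apolipoprotein E and many other ligands, went the other way. It had 16.8 and 20.2 FPKM in control 1 and 2 against 12.8 and 14.7 in shRybp 1 and 2, and fell by 0.47 (SE 0.08, 95% interval -0.65 to -0.29, edgeR adjusted p = 0.001). That call held under all 11 alternatives. Its ligand gene Apoe, also expressed by astrocytes, fell from 233 and 231 to 36.1 and 41.6 FPKM, a log2 fold change of -2.61 (adjusted p = 4.8e-10).

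Fatty acid enzymes went both ways, with 3 of 12 risen (25%, against 16.1% of all tested genes) and 4 fallen (33.3%, against 17%). Their median was -0.04, and it lay just above 0 with library totals, with limma and without control 1. With any 1 library left out, 2 fell, Fads1 and Fads2. In 5 of the 12 both shRybp libraries were above both controls, and in 4 both were below. Of all tested genes 38.5% lay above and 29% below. In the other 3 enzymes the groups overlapped. The 3 that rose lie on the route to saturated chains. Acly, which releases cytosolic acetyl-CoA from citrate, had 94.9 and 96.4 FPKM in controls and 117 and 118 in shRybp cells, and rose by 0.26 (SE 0.06, edgeR adjusted p = 0.0057). Fasn, the fatty acid synthase, had 71.8 and 75.6 against 87.7 and 97.4 FPKM and rose by 0.29 (SE 0.07, adjusted p = 0.0067), a call lost without shRybp 2 (0.0673). Elovl6, which extends palmitate to stearate, had 38.4 and 38.1 against 54.9 and 48.2 FPKM and rose by 0.39 (SE 0.07, 95% interval 0.24 to 0.54, adjusted p = 0.001). Both shRybp libraries were above both controls in all 3 genes, and the Acly and Elovl6 calls held under all 11 alternatives.

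Acaca, the acetyl-CoA carboxylase that stands between Acly and Fasn in the path, did not pass. It had 13.5 and 13.7 FPKM in controls and 15.1 and 14.8 in shRybp cells, a log2 fold change of 0.10 (95% interval -0.02 to 0.23, edgeR adjusted p = 0.20), and the pseudogene Gm5182 matches 64.3% of its transcript. Acss2, which makes acetyl-CoA from acetate, overlapped at 16.5 and 18 against 16.3 and 17.8 FPKM, with a log2 fold change of -0.06 (adjusted p = 0.55). Elovl5, which extends polyunsaturated chains, overlapped too, at 88.7 and 79.4 against 85.4 and 85.0 FPKM (log2 fold change -0.02, adjusted p = 0.85).

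Of the desaturases, 3 fell. Fads1, the delta-5 desaturase of polyunsaturated fatty acids, had 129 FPKM in both controls, 90.5 in shRybp 1 and 95.3 in shRybp 2. It fell by 0.52 (SE 0.06, 95% interval -0.65 to -0.38, edgeR adjusted p = 5.2e-05), the lowest log2 fold change of the 37 genes. Fads2, the delta-6 desaturase of the same path, had 232 and 241 against 196 and 206 FPKM and fell by 0.27 (SE 0.06, adjusted p = 0.0055). Both calls held under all 11 alternatives.

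Fads1 and Fads2 lie on opposite strands of chromosome 19, with 81141 bases between them (Fads2 at 10062765 to 10101746 and Fads1 at 10182888 to 10196877, mm10). Fads2 was 1.79 and 1.86 times as high as Fads1 in controls and 2.16 and 2.17 times in shRybp cells, so the ratio did not overlap between groups.

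Scd2, the main stearoyl-CoA desaturase of brain, had 970 and 1005 FPKM in controls and 859 and 889 in shRybp cells and fell by 0.22 (SE 0.07, edgeR adjusted p = 0.040). Both shRybp libraries were lower, but this call was lost in 7 of 11 alternatives, among them each of the 4 that left out a library (adjusted p from 0.0632 to 0.155). Its neighbour Scd1, 87590 bases away on the opposite strand of chromosome 19, did not pass, with 150 FPKM in both controls, 161 in shRybp 1 and 163 in shRybp 2 (log2 fold change 0.07, adjusted p = 0.40). The ratio of Scd2 to Scd1 was 6.48 and 6.71 in controls and 5.33 and 5.47 in shRybp cells.

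The acyl-CoA synthetases activate the finished chains. Acsl6, a form enriched in brain, had 4.41 and 4.56 FPKM against 3.98 and 3.88 and fell by 0.23 (SE 0.08, edgeR adjusted p = 0.049), a call lost in 10 of 11 alternatives (adjusted p from 0.0511 to 0.176), those without 1 library included. Acsl3 overlapped at 49.6 and 42.7 against 44.8 and 45.2 FPKM, with a log2 fold change of -0.08 (adjusted p = 0.47).

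Summed over the 12 fatty acid enzymes the level was 1858 and 1894 FPKM in controls and 1731 and 1783 in shRybp cells, lower in both. Scd2 made up 49.6% to 53.1% of the sum. With it left out, a choice made after the values were seen, the other 11 summed to 888 and 889 FPKM in controls against 873 and 894, and the groups overlapped.

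**Figure D4:**
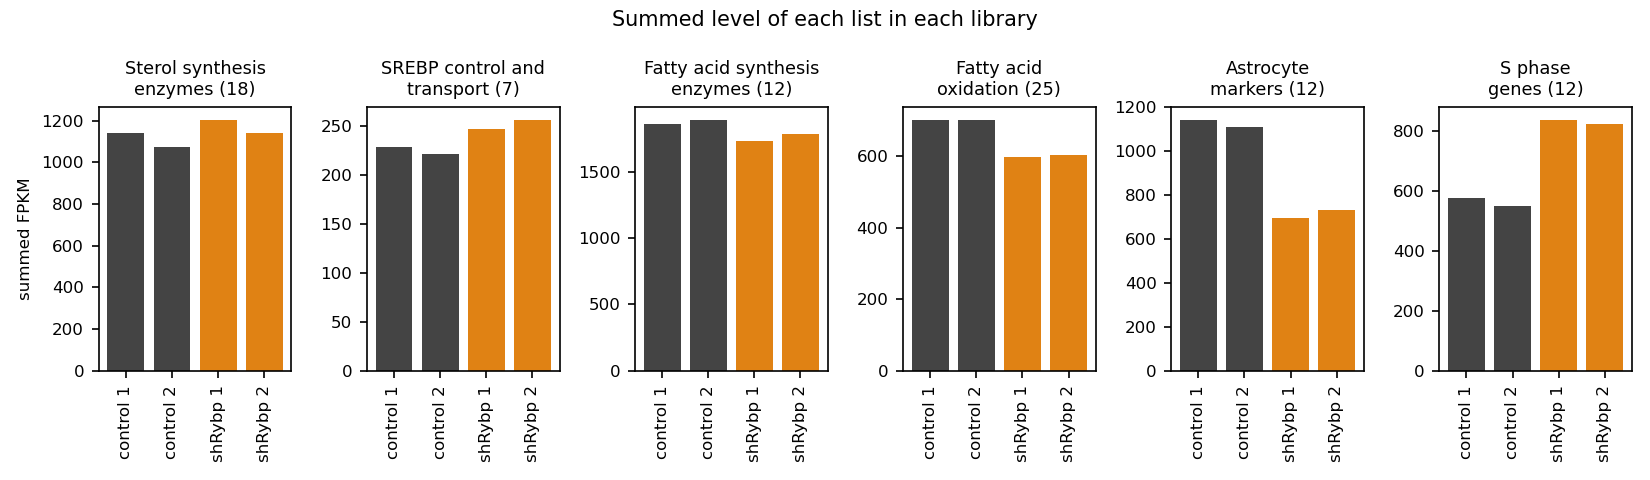
Summed FPKM (vertical axes from 0, each panel with its own scale) of 6 gene lists in each of the 4 libraries, with controls in dark grey and shRybp in orange. Sterol enzymes overlap between groups at 1075 to 1205, while fatty acid oxidation genes lie at 700 to 702 in controls and 596 to 604 in shRybp.

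Other genes of lipid metabolism were read from lists written for the same comparison. Of 7 further sterol synthesis genes tested, 3 rose (42.9%, against 16.1% of all tested genes) and none fell (against 17%). The median was 0.12. Lbr, a sterol reductase that is also a lamin receptor, had 13.3 and 13.2 against 17.8 and 16.8 FPKM and rose by 0.35 (edgeR adjusted p = 0.0028). Tmem97, an SREBP-regulated membrane protein that binds Npc1, had 47.6 and 46.7 against 62.5 and 60.3 FPKM and rose by 0.34 (adjusted p = 0.0028). In the branches that lead from mevalonate to prenylation, ubiquinone and dolichol, 2 of 21 rose and 2 fell (median 0.04). Each is 9.52%, against 16.1% risen and 17% fallen among all tested genes. Icmt, which methylates prenylated proteins, rose by 0.60, and the ubiquinone gene Coq7 by 0.28. The farnesyltransferase subunit Fnta had a log2 fold change of -0.28 and the prenyltransferase subunit Pggt1b one of -0.21, both falls. Pggt1b was just past the threshold (edgeR adjusted p = 0.049).

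Of 17 genes of SREBP processing and sterol sensing, 3 rose (17.6%, against 16.1% of all tested genes) and 1 fell (5.88%, against 17%). The median was 0.03. The SREBP protease Mbtps2 rose by 0.24, just past the threshold (edgeR adjusted p = 0.049). The ubiquitin enzyme Ube2g2 rose by 0.54 and Fbxw7, which targets nuclear SREBPs for degradation, by 0.28. Npc1, which exports cholesterol from lysosomes, was the 1 that fell, from 18.7 and 19 FPKM in controls to 7.65 and 7.71 in shRybp cells, or -1.33 on the log2 scale (edgeR SE 0.06, adjusted p = 2.0e-08). That change was larger than any among the 37.

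Of 17 genes of sterol uptake, efflux and storage, 4 rose (23.5%, against 16.1% of all tested genes) and 6 fell (35.3%, against 17%). The median was -0.01. The lipoprotein receptor Lrp8 had 7.04 and 7.21 against 11.3 and 10.8 FPKM and rose by 0.60 (edgeR adjusted p = 2.2e-05), and the sterol transfer gene Gramd1b rose by 0.36. Abca1, the pump that loads cholesterol onto apolipoproteins, had 9.26 and 10.2 against 4.27 and 4.99 FPKM and fell by 1.10 (adjusted p = 1.4e-06). Cav1, of caveolae, fell by 1.03 and Abcg4, another efflux pump, by 0.43.

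Further fatty acid synthesis genes were mixed, with 5 of 24 risen (20.8%, against 16.1% of all tested genes) and 4 fallen (16.7%, against 17%). The median was -0.04. Acsl1, another acyl-CoA synthetase, rose by 1.05, from 0.660 and 0.621 to 1.43 and 1.31 FPKM. It was below 1 FPKM in both controls and reached the filter only through its shRybp libraries, so its rise is a description. Acot7 rose by 0.70 and the lipogenic gene Thrsp by 0.62. The mitochondrial acetyl-CoA synthetase Acss1 fell by 0.91, the elongase Elovl7 by 0.57, and Cyb5a, a cytochrome b5 that passes electrons to desaturases, by 0.37.

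Fatty acid oxidation, the opposing pathway, was lower. Of 23 genes tested, 16 fell (69.6%, against 17% of all tested genes) and none rose (against 16.1%), with a median of -0.29. Both shRybp libraries were below both controls in 18 of the 23, against 29% of all tested genes. The carnitine carrier Slc25a20 had 7.22 and 7.68 against 4.64 and 4.51 FPKM and fell by 0.74 (edgeR adjusted p = 4.4e-05). Eci2, an enoyl-CoA isomerase, fell by 0.67. Astrocytes also express this pathway, and the part of the lower astrocyte markers in it was not tested.

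Of 27 genes of glycerolipid synthesis, which place fatty acids into membrane and storage lipids, 2 rose and 8 fell (median -0.13). That is 7.41% risen, against 16.1% of all tested genes, and 29.6% fallen, against 17%. Pcyt2, of phosphatidylethanolamine synthesis, rose by 0.36 and Gpat4 by 0.17, the latter just past the threshold (edgeR adjusted p = 0.048). Gpam, a mitochondrial acyltransferase, fell by 0.67, Chpt1, of phosphatidylcholine synthesis, by 0.62 and Pisd by 0.58.

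**Figure D5:**
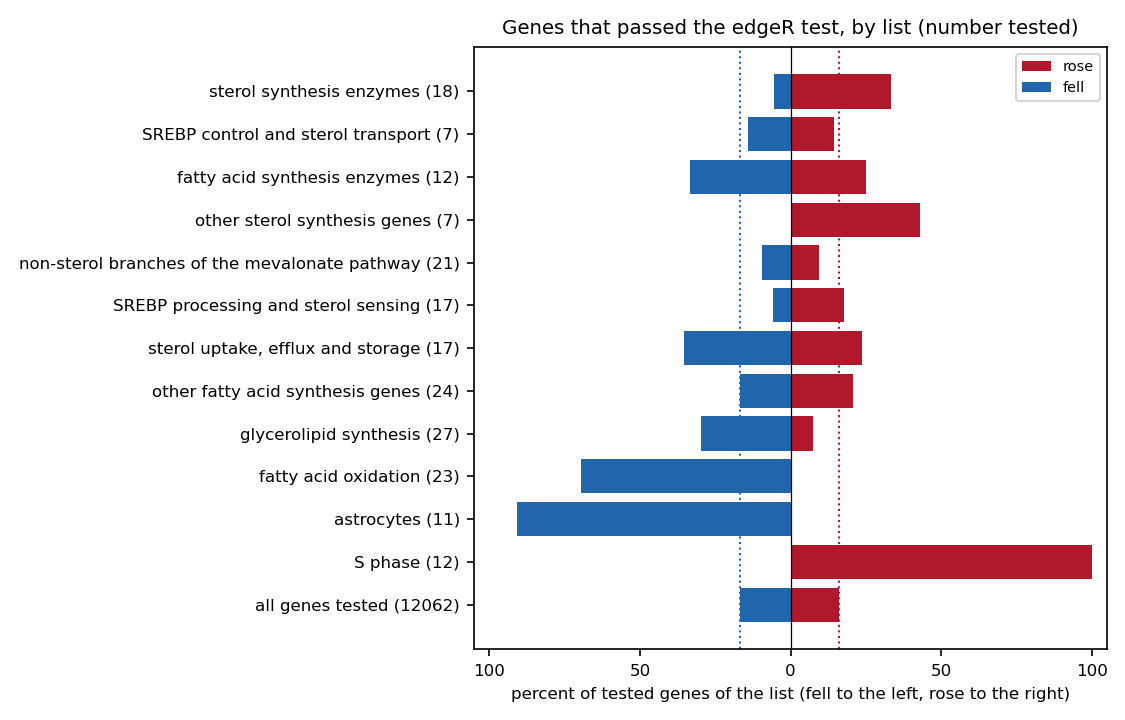
Percent of the tested genes of each list that rose (right) or fell (left) in shRybp cells by the edgeR test, with the number tested beside each list name and all tested genes for comparison. Sterol enzymes have 33.3% risen and 5.56% fallen, and fatty acid oxidation none risen and 69.6% fallen.

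Markers of other cells were at or near 0 for some types and not for others. Of 10 endothelial and pericyte markers 3 were in the table and none reached the filter, with a sum of 0.733 to 1.05 FPKM. Of 10 microglia markers 3 were in the table. For the counts that follow, 16.1% of all tested genes rose and 17% fell. Oligodendrocyte lineage markers had 4 of 10 fallen, with a sum of 849 and 881 FPKM in controls against 776 and 806. Most of each sum came from markers that did not pass, so it does not show the size of the falls. Single log2 fold changes ran from -2.51 to 0.01 (median -0.31). Of 8 neuronal markers 2 rose and 4 fell, with a sum of 252 and 231 FPKM in controls against 343 and 327. Most of each sum was Gap43, and 5 of the 8 log2 fold changes were below 0 (median -0.27). Gap43 rose by 0.76, at 158 and 135 against 259 and 250.2 FPKM, and Syt1 by 0.71. Mapt fell by 1.05 and Dcx by 1.22, at 1.59 and 1.83 against 0.863 and 0.650 FPKM. Dcx was below 1 FPKM in both shRybp libraries and reached the filter only through its controls. Progenitor markers had 2 of 11 risen, Nes by 0.67 and Vim by 0.26. The 5 that fell were Slc1a3 by 0.68, Fabp7 by 0.61, Msi1 by 0.57, Sox2 by 0.46 and Sox9 by 0.34. The sum was 3452 and 3191 FPKM in controls against 2721 and 2637. Most of each sum was Fabp7, at 2210 and 1982 FPKM in controls against 1468 and 1351, so the sum mainly follows that gene. Of the 11 log2 fold changes, 8 were below 0 (median -0.17). The part of these lists in the lipid gene results was not tested.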

How the data were processed

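Bulk RNA was sequenced from 2 control and 2 shRybp libraries. The deposited table gives read counts per gene that the authors did not normalize, and FPKM values that the authors computed from them, per the file headers. Count and FPKM differed by 1 factor per gene and 1 per library (largest relative departure 2.1e-08). Per the submitters' processing notes, mm10 was the build. Aligner, counter and strand handling were not given in the sources used here. Every gene in the table has at least 40 counts over the 4 libraries.

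The 12062 genes that averaged 1 FPKM or more entered a fit of their counts with edgeR 4.0.16 (TMM scaling, quasi-likelihood, two-sided) in R 4.3.3. P-values were adjusted by Benjamini-Hochberg over all genes, with a threshold of 0.05, and the fit was tested on simulated data. Replicates differed by more than counting noise (chi-square per degree of freedom 5.18 and 4.36). Alternatives used library totals, DESeq2 size factors, DESeq2 1.42.0, no filter, limma 3.58.1 on log2(FPKM + 1), with and without quantile scaling, each library left out, and the replicate number as a block. Promoter windows are RefSeq's on GRCm38.p6, and gene overlaps and near copies (at least 95% identity over 100 bases) came from GENCODE M21 on the same assembly.

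All 37 genes are named, and of every other list up to 3 genes that rose and 3 that fell with the largest log2 fold change. Some genes that this rule picks are not reported here. The 37 genes and the lists were chosen with earlier results of these data known. FPKM sums are sums over a list's genes.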

Additional observations from a re-analysis of the deposited data

How the results depend on the processing

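Of the 16 lipid genes called, 8 kept their call under all 11 alternatives (Msmo1, Ebp, Dhcr7, Lrp1, Acly, Elovl6, Fads1 and Fads2), 14 genes that did not pass stayed so under all, and none changed direction past the threshold. With each library left out in turn, sterol enzymes that rose numbered 3 to 7 and those that fell 1 to 2, with a median log2 fold change of 0.14 to 0.20. Genes of SREBP control and sterol transport that rose numbered 0 to 2, with a median of 0.10 to 0.21. Fatty acid enzymes that fell numbered 2 in each case, with a median of -0.0566 (without control 2) to 0.0586 (without control 1, the 1 above 0). Genes of SREBP control and sterol transport that rose numbered 3 with library totals, 3 with DESeq2 size factors, 3 with no filter, 0 with limma and 0 with limma after quantile scaling, and their median was 0.23 with library totals. Fatty acid enzymes that fell numbered 2 with library totals, 2 with no filter and 2 with limma, and their median was above 0 with library totals (0.00026) and with limma (0.0014). Library totals moved the median of all genes to 0.04, against 0.00 in the fit with TMM. The cause of these differences was not tested.

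With the replicate number as a block, sterol enzymes that rose numbered 9 and those that fell 2, genes of SREBP control and sterol transport that rose 4, and all lipid genes called 16 up and 7 down. The numbers may not pair the libraries: differences between libraries 1 and 2 in control and in shRybp cells correlated at r = 0.1 across 12062 genes, over 2 pairs, and the labels state no pairing. Over all genes 2596 rose and 2641 fell with the block, against 1937 and 2045 without it.

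With 2 libraries per group, the SE of the log2 fold change was between 0.06 and 0.14 over the 37 genes, which limits the size of change that could be detected.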

Other observations

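Msmo1, Sc5d, Fads1, Fads2, Scd1 and Scd2 take electrons by way of cytochrome b5, and 4 of these 6 genes fell, Msmo1, Fads1, Fads2 and Scd2, against 17% of all tested genes. The Scd2 call was lost in 7 of 11 alternatives, among them each that left out a library. The 6 genes were grouped after their values were seen, so the count carries no test. Of the b5 genes, Cyb5a had 15 and 14.8 FPKM in controls and 12.3 and 11.4 in shRybp cells and fell by 0.37 (log2, edgeR adjusted p = 0.0053). Cyb5b, the outer mitochondrial membrane form, had 70.5 and 67.9 against 86.3 and 85.3 FPKM and rose by 0.27 (adjusted p = 0.0045). The reductase Cyb5r3 overlapped between groups at 57.4 and 62.2 against 54.6 and 59.2 FPKM (log2 fold change -0.11, adjusted p = 0.22). Por, which serves Sqle and Cyp51, had 14.6 and 16.2 against 17.2 and 19.4 FPKM (0.21, adjusted p = 0.067).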
